A study of Mus musculus with 10 samples.

Results

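Bone morphogenetic protein (BMP) signalling and its readout genes, the inhibitors of DNA binding (ID), were followed in mouse embryonic liver cells in which the microRNA miR-30a had been targeted. The 10 genes described are the ligand genes Bmp2, Bmp4 and Bmp7, the receptor genes Bmpr1a and Bmpr2, the inhibitory SMAD gene Smad6, and Id1, Id2, Id3 and Id4. They were chosen by name, with earlier results of this same comparison known, out of 18193 genes that have a probe set annotated to a single symbol. The 10 genes have 23 such probe sets, out of 45037 that are no array controls. Where a gene has several, the main one was selected on its mean log2 value over all 10 arrays, the brightest being kept. The values below therefore describe these genes and are not independent evidence that they respond.

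BMEL cells are a bipotential line from mouse embryonic liver, which can give rise to hepatocyte-like or bile-duct-like cells. All cultures were transfected with a locked nucleic acid (LNA) oligonucleotide by means of Oligofectamine. The oligonucleotide was antisense to miR-30a on 5 arrays and a scrambled control on the other 5, and each group carries the replicate numbers 1 to 5. The labels give no dose, no time after transfection and no account of whether replicates were separate cultures, so the spread behind each p-value is that of these samples and may be technical. All values come from a single cell line, and the level of miR-30a itself is not among them.

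BMPs are secreted ligands that bring together type I receptors, such as the product of Bmpr1a, and type II receptors, such as that of Bmpr2. The active receptors phosphorylate SMAD transducers, which enter the nucleus with the shared partner SMAD4 and switch on target genes. Among the best known targets are the ID genes and Smad6, whose product feeds back to dampen the signal. ID proteins are helix-loop-helix proteins without a DNA-binding region: they hold E proteins and related factors away from DNA, and are generally high in progenitor cells and low in differentiated ones. In the embryonic liver, BMPs from the neighbouring mesenchyme take part in specifying and expanding hepatoblasts.

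The targeted microRNA is shown with its seed, bases 2 to 8 from the 5′ end, in capitals, because the seed is the part that pairs with target transcripts. The sequence is RefSeq's for GRCm38.p6, chr1:23272274-23272295, plus strand. In the RefSeq list used here, 4 mature mouse microRNAs carry this seed: miR-30a-5p, miR-30c-5p, miR-30e-5p and miR-384-5p. Whether that list holds every member of the miR-30 family was not checked, so the count is no count of the family.
miR-30a-5p: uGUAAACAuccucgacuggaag

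The promoters of the ID genes are shown because Id1 and Id3 changed in the same direction in every numbered pair of arrays. RefSeq's promoter table (GRCm38.p6) held 7 of the 10 genes; Bmp2, Bmp7 and Id1 were not among them. Each sequence is the 250 bases before the annotated start, 5′ to 3′ along the gene. Capitals mark GGCGCC, the core of many BMP-responsive elements, and GTCT, the short sequence SMAD proteins recognise, searched on both strands (AGAC is GTCT on the other strand).
Id3, chr4:136143572-136143821, plus strand: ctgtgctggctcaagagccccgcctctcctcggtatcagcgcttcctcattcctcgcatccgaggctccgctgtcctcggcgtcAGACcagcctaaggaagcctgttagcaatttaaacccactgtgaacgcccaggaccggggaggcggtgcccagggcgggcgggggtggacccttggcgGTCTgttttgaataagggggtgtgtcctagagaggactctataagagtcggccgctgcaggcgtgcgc
Id2, chr12:25096093-25096342, minus strand: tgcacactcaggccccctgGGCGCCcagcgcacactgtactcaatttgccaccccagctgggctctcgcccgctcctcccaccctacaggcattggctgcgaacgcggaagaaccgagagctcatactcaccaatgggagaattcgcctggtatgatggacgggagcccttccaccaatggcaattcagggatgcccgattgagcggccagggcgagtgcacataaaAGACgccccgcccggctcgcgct
Id4, chr13:48260866-48261115, plus strand: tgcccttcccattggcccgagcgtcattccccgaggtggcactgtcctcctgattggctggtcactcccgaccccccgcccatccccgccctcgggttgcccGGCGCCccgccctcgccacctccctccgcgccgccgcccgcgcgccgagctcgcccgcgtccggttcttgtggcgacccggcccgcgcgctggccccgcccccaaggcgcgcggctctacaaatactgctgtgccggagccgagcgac

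The Id3 window held GTCT at 2 places and no GGCGCC. The Id2 window held 1 of each, and the Id4 window held GGCGCC once and no GTCT. Of the other genes, Bmpr1a and Bmpr2 had 1 GGCGCC each and no GTCT, and Bmp4 and Smad6 had 1 GTCT each and no GGCGCC. Over all 32851 promoters of the same length, 9.59% held GGCGCC and 82.9% held GTCT, so a match to the shorter motif is the usual case. G and C made up 62.8% of the Id3 and Id2 windows and 75.6% of the Id4 window, against a median of 52.4% over all promoters. A match is only a match of letters and says nothing about binding in these cells.

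The array data give 1 log2 expression value per probe set and array. Array medians lay between 5.21 and 5.24. The 10 arrays were compared as antisense minus scrambled with limma, a linear model that shares information on spread across genes, over the 12634 genes whose brightest probe set had a mean of at least 4.56, and a Benjamini-Hochberg adjusted p of 0.05 was the threshold. In all 193 genes passed. A second fit added the replicate number as a block, which compares arrays of the same number. Of the 18193 genes with a probe set 12634 were above the filter, so a count of markers above it does not show which lineages are present. Liver epithelial markers bore out the label in part, by level: Krt8 was at 13.77, Cdh1 at 11.21 and Hnf4a at 10.68. Afp was at 6.38 and Alb at 4.71, just above the filter, and all 9 measured markers of this list were above it. Of the other lineages, 5 of 8 mesenchymal and stellate, 3 of 6 endothelial and 4 of 6 blood and macrophage markers were above it. The brightest of these was the endothelial gene Flt1 at 8.22, above the liver epithelial markers Sox9 (7.27), Afp, Epcam (6.33) and Alb. Among the markers only the macrophage and lysosome gene Cd68 passed the test, which 1.53% of all genes tested passed. Its means were 5.47 ± 0.15 for scrambled and 5.86 ± 0.11 for antisense (SD, n = 5 each). Cd68 was higher in 5 of 5 pairs and without overlap (limma change 0.39, adjusted p = 0.0176, and 0.00937 with the block). Among the liver epithelial markers, Sox9, a gene of bile duct progenitors, also had groups that did not overlap, higher in 5 of 5 pairs, but did not pass (change 0.17, adjusted p = 0.0662, and 0.0571 with the block). Groups without overlap and with antisense higher were found for 2.74% of all genes tested. Col1a1, Lrat, Reln, Pecam1, Cdh5, Tek, Ptprc and Adgre1 lay below the filter. Summed on the linear scale, the mesenchymal and stellate markers ranged from 211 to 222 in scrambled and from 209 to 234 in antisense arrays, the endothelial markers from 433 to 479 and from 399.8 to 460.3, and the blood and macrophage markers from 199 to 227 and from 208 to 238. RNA quality was read from 4 control transcripts, whose mean 3′ minus 5′ log2 signal was 0.385 to 0.563 in scrambled and 0.458 to 0.494 in antisense arrays. The part of these quantities in the results below was not tested.

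Of the 10 genes, 9 entered the test. Id4 did not, since its brightest probe set had a mean of 3.72, below the filter level, while the dimmest gene that did enter, Bmp7, was at 5.59. None of the 9 passed the threshold without the block, against 1.53% of all genes tested. At an unadjusted p under 0.05 there were 3 of them, Id1, Id3 and Bmp4, where 12.9% of all genes were, and with the block 4, Bmp2 being added, where 17.2% of all genes were. With the replicate block 2 of the 9, Id1 and Id3, were called lower, where 1.04% of all genes were, and none was called higher, where 2.00% of all genes were. The median log2 change of the 9 was -0.082 and 6 were below 0, while over all 12634 genes the median was 0.0084 and 5670 were below 0. In bulk RNA, a change in the number of cells that express a gene and a change in RNA per cell cannot be told apart.

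Id3 had the largest change among the main probe sets of the 9 tested genes. On its probe set, 1416630_at, the scrambled arrays read 10.22, 10.29, 10.27, 10.41 and 10.43 for replicates 1 to 5, and the antisense arrays read 10.01, 10.03, 10.08, 10.10 and 10.22. The groups touched at a single point: antisense replicate 5 (10.2159) lay above scrambled replicate 1 (10.2156) by less than the second decimal, and every other antisense array lay below every scrambled array. The means were 10.32 ± 0.095 (SD, n = 5) and 10.09 ± 0.082 (SD, n = 5). The log2 change was -0.24 (SE 0.054, 95% interval -0.35 to -0.12), a 1.18-fold difference, with a limma adjusted p of 0.0506 without the block. Within numbered pairs the antisense array was lower in 5 of 5, by log2 differences of -0.21, -0.26, -0.19, -0.31 and -0.22. With the replicate block Id3 fell (SE 0.034, limma adjusted p = 0.0134). That call was lost without the arrays of replicate 2 (adjusted p = 0.0535) and held without those of replicates 1, 3, 4 or 5.

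Id1, the ID gene most often used as a readout of BMP signalling, was the only member whose main probe set did not overlap between the groups, with antisense lower, as held for 1.18% of all genes tested. On 1425895_a_at the scrambled arrays read 12.52, 12.55, 12.52, 12.57 and 12.62 for replicates 1 to 5, and the antisense arrays 12.35, 12.23, 12.36, 12.40 and 12.49. Antisense replicate 2 was the lowest of all and scrambled replicate 5 the highest. The means were 12.55 ± 0.043 (SD, n = 5) and 12.37 ± 0.093 (SD, n = 5). The log2 change of -0.19 (SE 0.048, 95% interval -0.29 to -0.083) is a 1.14-fold difference and had a limma adjusted p of 0.0769 without the block. The antisense array was lower in 5 of 5 pairs, by -0.16, -0.32, -0.16, -0.17 and -0.13. With the replicate block Id1 fell (SE 0.038, limma adjusted p = 0.0439), but the call was lost whichever pair was left out, with adjusted p from 0.092 to 0.119. It was 0.092, 0.104, 0.119, 0.111 and 0.0929 without the arrays of replicates 1 to 5.

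Id2, whose product binds the same E proteins, had 3 probe sets above the filter, and all of them had small changes below 0 that did not pass. On the brightest, 1422537_a_at, scrambled arrays ranged from 11.97 to 12.23 and antisense arrays from 12.00 to 12.09, so the antisense range lay inside the scrambled one. The change was -0.082 (SE 0.047, 95% interval -0.18 to 0.021, limma adjusted p = 0.519, and 0.327 with the block), and the antisense array was lower in 4 of 5 pairs. The other Id2 probe sets, at mean levels of 11.27 and 7.75, had changes of -0.10 and -0.098. For Id4, the ID gene best known from the nervous system and mammary gland, all 3 probe sets lay below the filter, with means of 3.72, 3.32 and 3.17. These values are too dim to order the groups, and Id4 was given no test over genes.

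**Figure D1:**
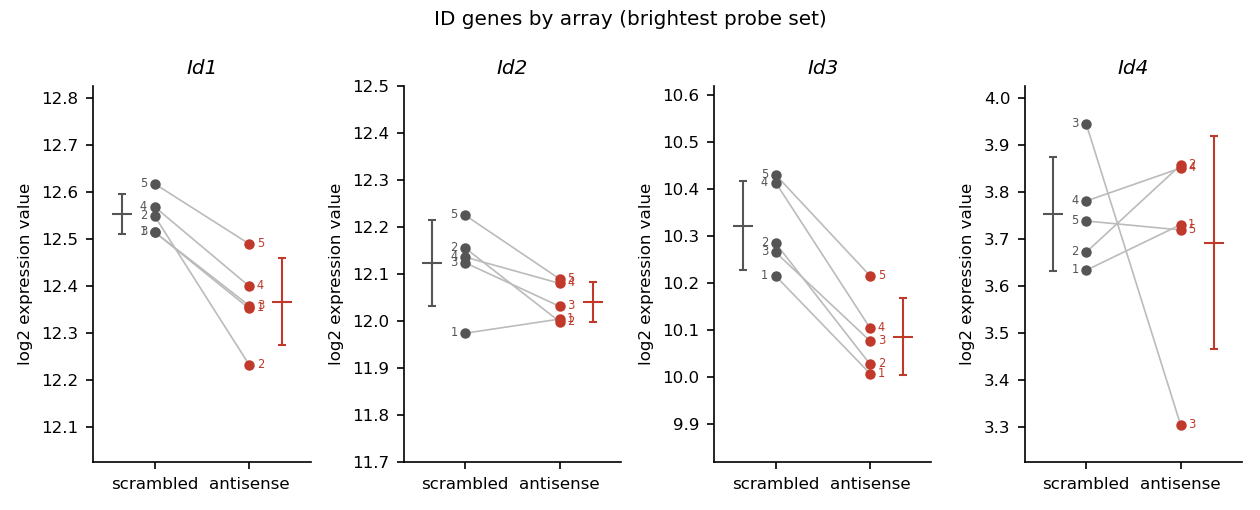
Log2 expression value (vertical axis) of the brightest probe set of Id1, Id2, Id3 and Id4 on each scrambled (grey) and antisense (red) array; grey lines join arrays of the same replicate number, printed beside the points, and the outer bars are the mean ± SD of 5 arrays. All vertical axes span the same range and do not start at 0; every line of Id1 and Id3 runs down, Id2 runs down in 4 of 5, and Id4 lies below the filter level of 4.56.

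Among arrays of a group, deviations from the group mean correlated at 0.62 between Id1 and Id2, 0.79 between Id1 and Id3 and 0.78 between Id2 and Id3 (Pearson, 10 arrays that share labelling and normalization, given as a description). Replicate 5 was the highest array for each of them in both the scrambled and the antisense group. Antisense replicates 1 and 2 were the lowest antisense arrays for all 3. Bmp2, described next, was likewise highest in replicate 5 of both groups, with correlations of 0.70, 0.28 and 0.45 to Id1, Id2 and Id3. Those of Bmp4 were 0.28, 0.80 and 0.67. In the fit that compares arrays of the same number, the SE of the change was 0.034 instead of 0.054 for Id3 and 0.040 instead of 0.081 for Bmp2. These orderings were picked out after the values were seen.

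Of the 3 ligand genes none passed with or without the block; the change was below 0 for Bmp2 and Bmp7 and above 0 for Bmp4. For Bmp2, a ligand that also acts in bone and heart development, measured by 1423635_at, the scrambled arrays read 8.95, 8.68, 8.94, 8.84 and 9.09 and the antisense arrays 8.75, 8.49, 8.78, 8.82 and 8.87. The groups overlapped widely, since replicate 2 was the lowest array of each. Yet the antisense array was lower in 5 of 5 pairs, by -0.20, -0.19, -0.16, -0.016 and -0.23. The change was -0.16 (SE 0.081, 95% interval -0.33 to 0.018, limma adjusted p = 0.447), and with the block the SE was 0.040 and the adjusted p 0.0846. Without antisense replicate 2 the change was -0.096.

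For Bmp4, the ligand closest in sequence to Bmp2, the change was above 0. On 1422912_at the scrambled arrays read 7.91, 8.13, 8.01, 8.10 and 8.12 and the antisense arrays 8.12, 8.25, 8.20, 8.21 and 8.24. The groups overlapped only through antisense replicate 1, which lay below scrambled replicates 2 and 5. The means were 8.05 ± 0.093 (SD, n = 5) and 8.20 ± 0.050 (SD, n = 5), a 1.11-fold difference, and the antisense array was higher in 5 of 5 pairs. The change of 0.15 (SE 0.049, 95% interval 0.045 to 0.26) did not pass in the limma fit without the block (adjusted p = 0.179) or in that with it (adjusted p = 0.0589). Id1, Id3, Smad6, Bmp2 and Bmp4 have 1 probe set each, so their values have no check from a second. For Bmp7, a ligand with a prominent role in kidney development, the brightest probe set had a mean of 5.59 and a change of -0.086 (SE 0.055, 95% interval -0.21 to 0.033, adjusted p = 0.576), and its groups overlapped. Its other probe sets, at means of 3.24 and 3.21, were below the filter.

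The receptor genes had brightest probe sets with changes close to 0. Bmpr1a, a type I receptor gene, ranged from 8.55 to 8.69 in scrambled and from 8.59 to 8.70 in antisense arrays, with a change of 0.032 (SE 0.041, 95% interval -0.056 to 0.12, limma adjusted p = 0.818). Bmpr2, the type II receptor gene, ranged from 9.06 to 9.32 and from 9.12 to 9.18, with a change of 0.011 (SE 0.051, 95% interval -0.098 to 0.12, adjusted p = 0.961). With 1 array left out, the change of Bmpr1a ranged from 0.015 to 0.051 and that of Bmpr2 from -0.0091 to 0.056. The intervals leave room for changes of up to 0.12 on the log2 scale. Smad6, which encodes an inhibitory SMAD, had means of 7.12 ± 0.024 for scrambled and 7.04 ± 0.10 for antisense (SD, n = 5 each). The difference was -0.079 (SE 0.048, 95% interval -0.18 to 0.025, adjusted p = 0.547), and -0.047 without antisense replicate 1. Antisense replicates 1 and 2, at 6.91 and 6.95, lay below all scrambled arrays, while the other 3 antisense arrays (7.13, 7.09 and 7.11) lay close to the scrambled range of 7.09 to 7.15. The adjusted p with the block was 0.743 for Bmpr1a, 0.929 for Bmpr2 and 0.422 for Smad6.

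**Figure D2:**
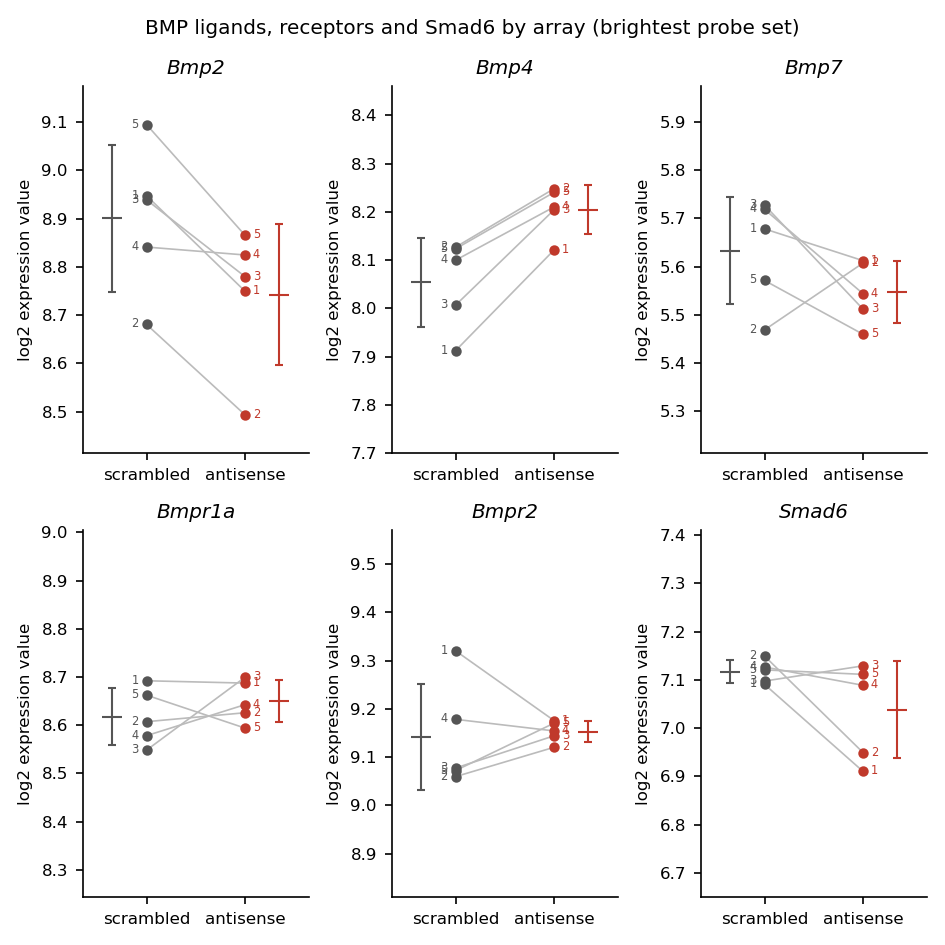
Log2 expression value (vertical axis) of the brightest probe set of the BMP ligand genes, the receptor genes and Smad6 on each array, drawn as for the ID genes with lines joining the same replicate number and outer bars for the mean ± SD of 5 arrays. All vertical axes span the same range and do not start at 0. Bmp2 runs down and Bmp4 up in every pair, while Bmp7, Bmpr1a, Bmpr2 and Smad6 have lines in both directions.

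Probe sets of a receptor gene did not give 1 answer. The dimmer Bmpr2 probe set 1419616_at, with a mean of 6.01, read 5.90, 5.91, 5.83, 5.96 and 5.93 on scrambled and 6.06, 6.14, 6.04, 6.20 and 6.10 on antisense arrays. Its groups did not overlap, with antisense higher, as held for 2.74% of the genes tested on their brightest probe set. Its change of 0.20 (SE 0.048, 95% interval 0.10 to 0.31) stands beside 0.011 on the brightest Bmpr2 probe set and -0.054 on one below the filter. For Bmpr1a, the 4 brightest of 6 probe sets had changes from 0.016 to 0.083 and the 2 dimmest had -0.13 and -0.11. The Bmpr1a probe set with -0.13, at a mean of 4.67, was above the filter and lower in 5 of 5 pairs. That with 0.083, at a mean of 6.58, was higher in 5 of 5 pairs. The probe set of Bmpr1a with a mean of 6.71 varied most between arrays, with SDs of 0.31 in scrambled and 0.23 in antisense arrays. Which transcripts each probe set detects is not used here.

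A separate limma fit over all 45037 probe sets that are no array controls gave every member probe set its own p. None of the 23 passed, without the block (0.266% of all probe sets did) or with it (0.429% did), and 4 and 6 of them had an unadjusted p under 0.05, against 9.35% and 11.3% of all probe sets. Adjusted p was 0.143 without and 0.0725 with the block for Id3 and 0.21 and 0.165 for Id1, higher than over genes. The SE of Id3 with the block was also larger, 0.043 against 0.034 over genes. For the dimmer Bmpr2 probe set, which is not in the fit over genes, adjusted p was 0.12 and 0.0994. The calls of Id1 and Id3 with the block thus hold over genes and not over probe sets. Of the 23 probe sets 16 had a change below 0, and of the 16 above the filter 9 did.

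**Figure D3:**
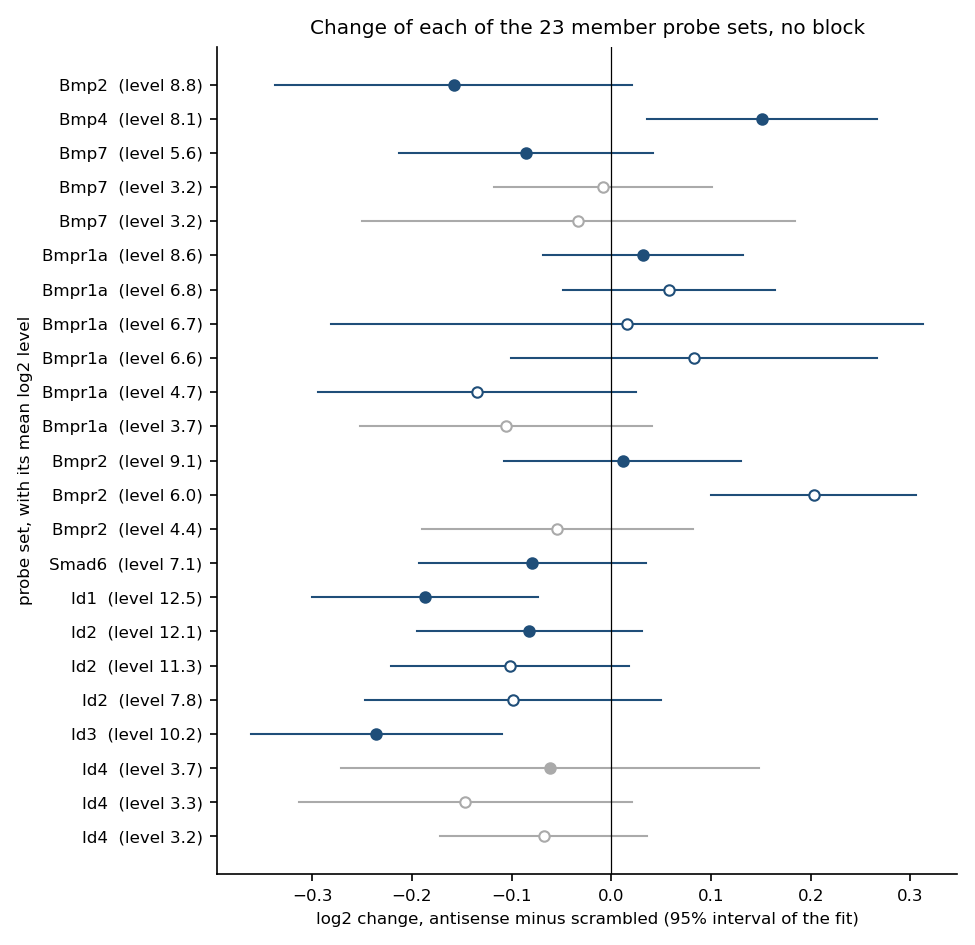
Log2 change, antisense minus scrambled (horizontal axis), of each of the 23 probe sets with the 95% interval of the limma fit without block; filled points are the brightest probe set of a gene, open points the others, grey those with a mean below the filter level of 4.56. The intervals of Id1, Id3, Bmp4 and the Bmpr2 probe set at level 6.0 exclude 0 before adjustment for the number of probe sets, and none of the 23 passes after it.

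Whether Id1 and Id3 passed differed between settings of the fit. Id3 passed in 15 of 27 other settings and Id1 in 5, and no setting turned the sign of either. Without a block, Id3 passed with the 60% filter (0.0352), after centring on array medians (0.0493), and without antisense replicate 5 (0.0378) or scrambled replicate 1 (0.0475). With the block and no filter, Id1 missed (0.0915). With a prior variance that follows the expression level, adjusted p was 0.0153 for Id1 and 0.017 for Id3. With each array left out in turn and no block, it ranged from 0.0508 to 0.169 for Id1 and from 0.0378 to 0.123 for Id3. Bmp4 passed in 1 of the 27 settings and Bmp2 in none.

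**Figure D4:**
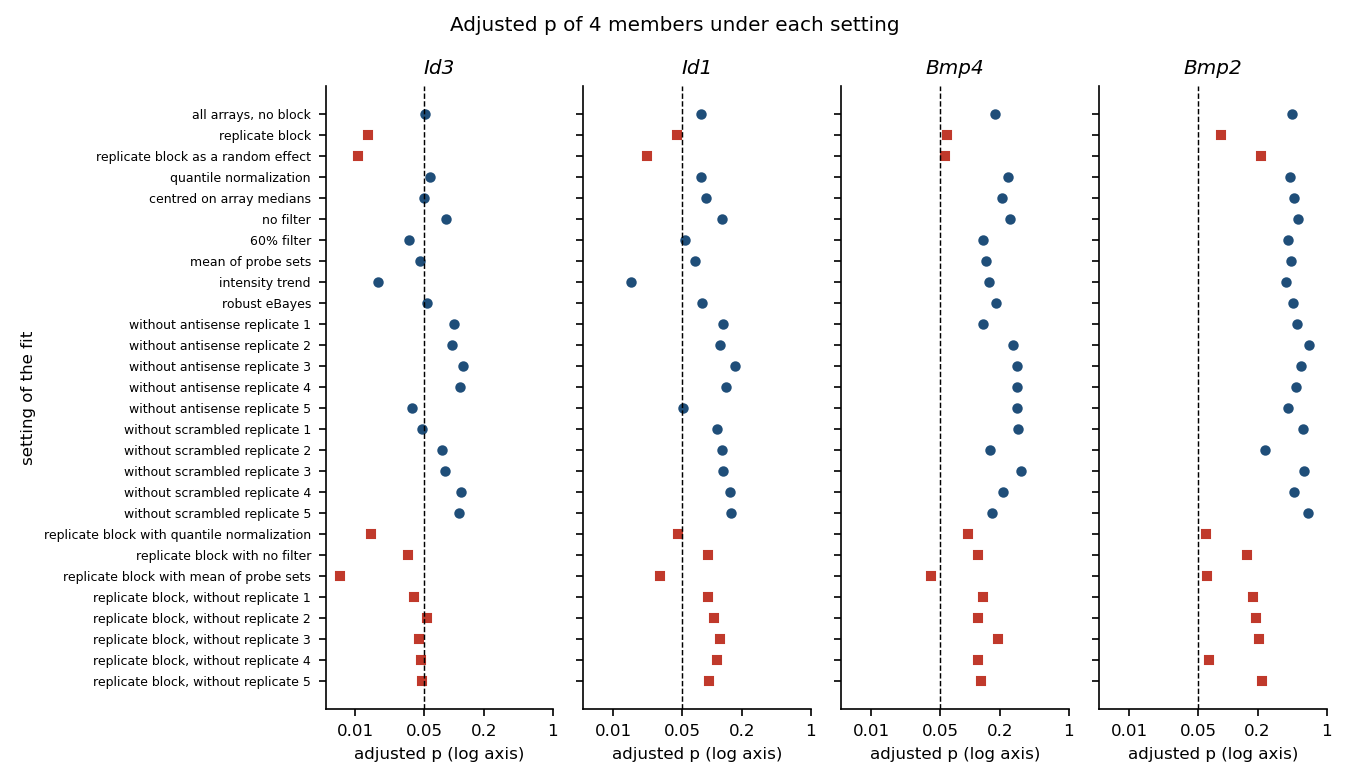
Adjusted p (horizontal log axis) of Id3, Id1, Bmp4 and Bmp2 in each setting of the limma fit (vertical axis); red squares are fits with the replicate number as a block, blue circles fits without it, and the dashed line is the threshold of 0.05. Id3 lies left of the line in 15 of 27 other settings, Id1 in 5, Bmp4 in 1 and Bmp2 in none.

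The other genes of the pathway were read from the same fit. Of 63 listed genes 58 had a probe set and 41 were tested. The median change of the 41 was -0.0059, and 1 of them was called, higher, against 1.53% of all genes. The called gene was Cdkn1a. At an unadjusted p under 0.05 there were 8 of the 41, and this count and those of the lists stand against 12.9% of all genes. Among the other ligand genes 4 of 11 were tested and none passed (none at an unadjusted p under 0.05 either). They included Gdf2, the gene of BMP9, a ligand made in the liver, at -0.085 (SE 0.041, adjusted p = 0.409) and Bmp8a at 0.046 (SE 0.050).

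Of the other receptor and co-receptor genes 5 of 9 were tested and none passed, while 2 had an unadjusted p under 0.05. These were Acvr2a and Acvr1, a type II and a type I receptor gene shared between BMPs and activins, and they lay on opposite sides of 0. Acvr2a had means of 8.44 ± 0.042 for scrambled and 8.29 ± 0.057 for antisense (SD, n = 5 each), and its groups did not overlap. The difference was -0.15 (SE 0.040, limma adjusted p = 0.081, and 0.0973 with the block). Acvr1 had a change of 0.19 (SE 0.068, adjusted p = 0.25, and 0.0772 with the block) and was above 0 in 5 of 5 pairs. Second probe sets above the filter had -0.069 for Acvr2a and 0.12 for Acvr1, and the mean of all Acvr1 probe sets had 0.086.

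BMP antagonists, secreted or membrane proteins that keep ligands from signalling, had 9 of 16 genes tested and a median change of 0.073, with 6 above 0. None passed, and 2 had an unadjusted p under 0.05. Fst, which encodes the activin and BMP binding protein follistatin, had a change of 0.18 (SE 0.068, adjusted p = 0.269). Bambi, the gene of a decoy receptor that is itself switched on by BMP signalling, had 0.15 (SE 0.053, adjusted p = 0.234) at a mean just above the filter level, 4.69. Noggin, encoded by Nog, was below the filter.

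Of the SMAD transducers and inhibitors 7 of 8 were tested, with a median change of -0.012, and none passed (2 at an unadjusted p under 0.05). Smad7, the other inhibitory SMAD gene, had means of 9.12 ± 0.069 for scrambled and 9.23 ± 0.039 for antisense (SD, n = 5 each). The difference of 0.11 (SE 0.042, 95% interval 0.016 to 0.20, limma adjusted p = 0.287) was above 0 in 5 of 5 pairs, while that of Smad6 was below 0 in 4 of 5. A second Smad7 probe set above the filter, at a mean of 5.19, had a change of 0.030. Smad1, which carries the BMP signal to the nucleus, had a change of 0.10 (SE 0.043, adjusted p = 0.335), and its other probe sets had -0.028 and 0.19.

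Of 14 BMP-responsive genes, 12 were tested, 7 below and 5 above 0, with a median of -0.015. None passed, and 3 had an unadjusted p under 0.05: Gata2, Bambi and Smad7. Bambi and Smad7 were already counted in the antagonist and SMAD lists above, with the same values. Gata2, a transcription factor gene of blood and vessels, had the change farthest from 0, -0.22 (SE 0.070, adjusted p = 0.18), below 0 in 5 of 5 pairs. Its second probe set, below the filter, had -0.067, and the mean of both had -0.14. Hamp, the hepcidin gene that BMPs control in hepatocytes, had a mean of 4.92 in antisense and 4.86 in scrambled arrays, near the filter level.

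The E protein genes Tcf3, Tcf4 and Tcf12 encode proteins that ID proteins bind. All 3 were tested and none passed, nor did any at an unadjusted p under 0.05. Tcf12 had a change of -0.066 (SE 0.035, adjusted p = 0.479) and Tcf3 of 0.035 (SE 0.045, adjusted p = 0.821). Their other probe sets above the filter had 0.072, -0.13 and -0.049 for Tcf12 and 0.027 and 0.13 for Tcf3. Of 4 cell cycle inhibitor genes reported to be repressed through ID proteins or activated by E proteins, 3 were tested and 1, Cdkn1a, rose. Cdkn1a, which encodes p21 and is also a classical p53 target, had means of 11.68 ± 0.031 for scrambled and 11.87 ± 0.045 for antisense (SD, n = 5 each), with no overlap. The difference was 0.19 (SE 0.037, limma adjusted p = 0.0254, and 0.0233 with the block), and its second probe set had 0.19. The call was lost without antisense replicates 3, 4 or 5 (adjusted p = 0.0654, 0.0724 and 0.0665) or scrambled replicates 2, 3 or 4 (0.0608, 0.0721 and 0.0536), and with no filter on low values (0.0534). With the block it was lost whichever pair was left out (0.055 to 0.0926). Cdkn2b had a change of 0.055 (SE 0.094) and Cdkn1c of 0.0060, and neither passed.

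**Figure D5:**
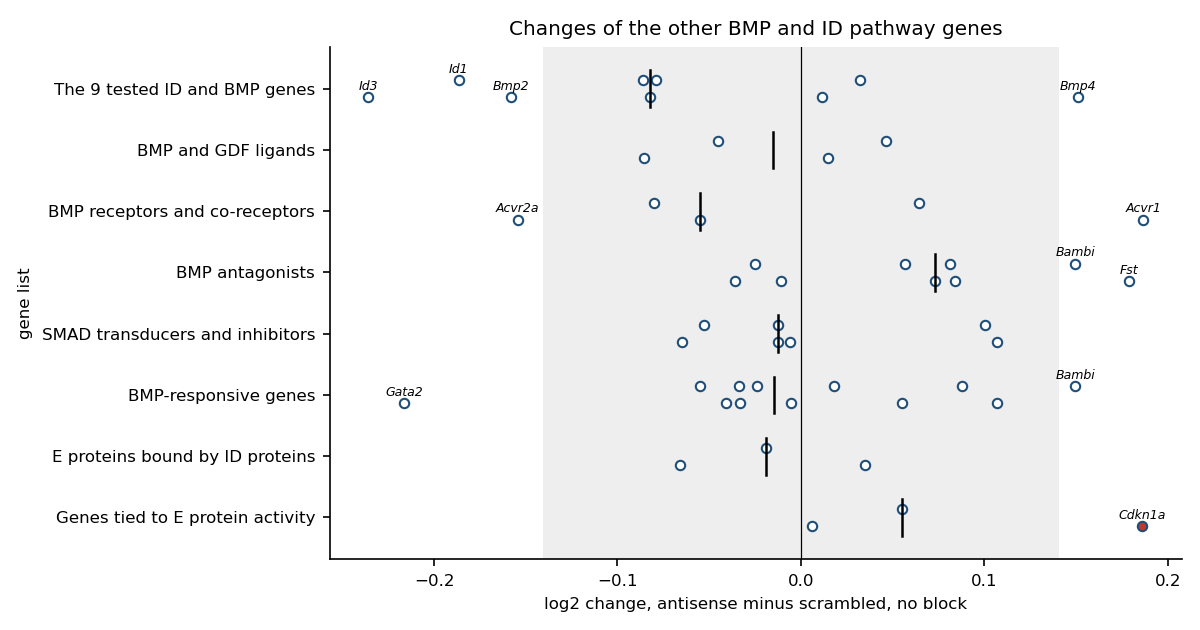
Log2 change, antisense minus scrambled without block (horizontal axis), of each tested gene in each list (vertical axis), with the list median as a vertical bar; the grey band reaches 0.14 to each side of 0, where 9 in 10 of all genes tested lie, and genes outside it are named. Cdkn1a, the filled point, is the only one of these genes past the threshold without the block; Id3, Id1, Bmp2, Acvr2a and Gata2 lie left of the band and Bmp4, Acvr1, Bambi, Fst and Cdkn1a right of it.

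The genes whose deviations from the group means over the 10 arrays were most like those of Id1 were Dip2a, Acot13 and Ddt (Pearson correlations of 0.97), and those most opposite were Krr1 (-0.99), Togaram1 (-0.97) and Sec23ip (-0.96). For Id3 they were Ptn, Hprt and Hmox1 (0.95, 0.95 and 0.95) and, at the other end, Cav2 (-0.98), Rnf141 (-0.97) and Gsr (-0.96). These are the extremes among 12634 genes on 10 arrays that share labelling and normalization, and they are a description only. None of these 12 genes passed the test between the groups, without or with the block.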

How the data were processed

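The deposited table holds log2 expression values for 45101 probe sets on 10 single-colour arrays; per the labels, RNA was isolated with the mirVana kit and amplified and biotin-labelled with MessageAmp Premier. The log2 scale was read from the deposited values, whose highest was 14.1827. How the authors summarised and normalized the probes is not given in the sources used here. The platform annotation gave 1 symbol for 34945 probe sets that are no array controls, updated by gene identifier. The brightest probe set of each gene was kept, and genes under 4.56, the 40% quantile of probe set means, were left out. Groups came from the titles. limma 3.58.1 in R 4.3.3 (lmFit, eBayes, two-sided, Benjamini-Hochberg) was run without and with the replicate number as a block. It was also run on simulated data that held no effect of the replicate number. That run therefore does not bear on whether the block suits these arrays. Figures used matplotlib 3.10.9.

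After the group means were subtracted, the correlation between the scrambled and the antisense array was 0.172, 0.377, 0.112, 0.152 and 0.334 for numbers 1 to 5, and -0.312 to 0.231 for unlike numbers. Every like pair being over 0.1, the numbers were taken to pair the samples, and no label states their meaning. The highest value for unlike numbers, 0.231, lay above the like values of 0.172, 0.112 and 0.152. These correlations therefore do not establish the pairing, which remains an assumption. The fits with the replicate block, and the calls of Id1 and Id3 in them, rest on it. The genes and lists were chosen with earlier results of these data known. Named were all members, the 2 tested genes of each list with the smallest p, and the 3 genes most and least like Id1 and Id3, clone names passed over; Nog, Hamp, Tcf4, Cdkn1c and the markers were named after their values were seen. The precision is limited by the number of arrays.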

Additional observations from a re-analysis of the deposited data

Results flagged for a closer look

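Among 46 groups of 5 values (23 probe sets in both conditions), 1 array stood apart from the others of its group: antisense replicate 3 read 3.31 on the brightest Id4 probe set, and the nearest other antisense array read 3.72. That gap was 0.75 of the group's whole range. Chance alone sets apart about 1 group in 20, and the probe set lies below the filter level, so no result above rests on this value.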

How the results depend on the processing

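With the replicate block 385 genes passed instead of 193, and 2 members, Id1 and Id3, instead of 0; as a random effect the block gave 497 genes, 2 members and 2 pathway genes (Cdkn1a and Acvr2a) instead of 1. An intensity trend gave 314 genes and 2 members. Id3 alone passed (1 member, change -0.24) after centring on array medians (173 genes), with the 60% filter (233 genes) and with the mean of probe sets (180 genes). Cdkn1a missed with no filter (145 genes, 0 pathway genes). The changes of Id1 and Id3 were -0.19 and -0.24 in the block and trend fits. With 1 array left out, 92 to 201 genes, 0 to 1 members and 0 to 1 pathway genes passed, with changes of -0.27 to -0.21 for Id3; genes numbered 95, 92, 123 and 101 without antisense replicates 3, 4 and 5 and scrambled replicate 3. The sign of Bmpr2 (-0.0091 to 0.056) and of Cdkn2b (-0.0028 to 0.15) depended on the array left out, and Bmpr1a turned to -0.0086 with the mean of probe sets, with and without the block.

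Alternatives chosen after seeing the data joined the block with another choice. Quantile normalization gave 403 genes and 2 members (Id1 -0.18, Id3 -0.24). No filter gave 231 genes, 1 member (Id3 -0.24) and 0 pathway genes. The mean of probe sets gave 458 genes and 3 members (Id1 -0.19, Id3 -0.24, Bmp4 0.15). With the block and without replicate 1, 3, 4 or 5, Id3 was the 1 member called (-0.24, -0.25, -0.22 and -0.24). In these fits 187, 173, 182 and 159 genes passed. No member was called without replicate 2, where 134 genes passed. With each of the 5 numbers left out in turn, 0 pathway genes passed. Bmpr2 turned to -0.00094, -0.0024 and -0.010 without replicates 2, 3 and 5, and Tcf3 to -0.0057 without replicate 5. Among the planned settings, a dim Bmp7 probe set turned to 0.0069 after quantile normalization without the block. The other member changes kept their sign and their side of the threshold.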
